A study of Homo sapiens with 6 samples.

Results

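The genes described here are the 4 members of the SLC37 family of sugar-phosphate exchangers (SLC37A1, SLC37A2, SLC37A3 and SLC37A4) and the 2 enzymes G6PC3 and H6PD, which use glucose-6-phosphate inside the endoplasmic reticulum (ER). All 6 had a row in the deposited count table, which holds 26347 gene identifiers, and all 6 were among the 14731 genes tested. SLC37A2 was picked because it was already known to be lower after the microRNA in these libraries. Its difference between the groups is therefore given as a description. The edgeR call, interval and adjusted p printed for it come from the values that chose it and are no independent test. The other genes were picked for their function, with earlier results of these data known.

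All libraries were made from THP-1, a long-established cell line from a human monocytic leukaemia, grown in RPMI with FBS. One group of 3 libraries came from cells transfected with a negative control microRNA mimic and the other 3 from cells transfected with a miR-125a-5p mimic, and RNA was taken 24 h later. All cells were therefore transfected, and no library came from untransfected cells. The title of the series speaks of macrophages, but the sample labels describe monocytic cells and name no differentiation step.

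Glucose-6-phosphate is made in the cytosol, where it feeds glycolysis, the pentose phosphate pathway and glycogen. SLC37A4 carries it across the ER membrane in exchange for inorganic phosphate, and a phosphatase in the ER membrane then splits it, G6PC1 in liver and kidney and G6PC3 in most other cells. H6PD oxidises it in the ER lumen and thereby makes the NADPH of that compartment. Inherited loss of SLC37A4 or G6PC3 leaves people short of working neutrophils, so these transporters and enzymes are of interest in myeloid cells. A microRNA lowers the level of messenger RNAs that pair with its seed, and pairing in the 3′ untranslated region (3′ UTR) usually counts most.

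Mature miR-125a-5p is shown first, with its seed (bases 2 to 8) in capitals, because the matches below are defined by it. Its sequence is that of RefSeq (GRCh38.p14, chromosome 19, 51693268 to 51693291, plus strand).
miR-125a-5p: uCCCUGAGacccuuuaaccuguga

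Matches were searched on the transcript strand as CTCAGGGA (8mer), CTCAGGG (7mer-m8), TCAGGGA (7mer-A1) and TCAGGG (6mer), where each longer match contains the 6mer and a place is counted under its longest form. The transcripts were those of GENCODE 29 on GRCh38, whereas the build named for the counts is hg19. The following 30-base windows show the SLC37A2 matches, those of G6PC3 and the 8mer of H6PD, with the matched letters in capitals.
SLC37A2 coding sequence: tccctgctctaTCAGGGAgagcggccttga
SLC37A2 3′ UTR: gaaatagaagatTCAGGGgcctgagctctg
G6PC3: ctgagccgtgaCTCAGGGgctgccctgggc
H6PD 3′ UTR: cccccaacttcCTCAGGGAggacccctgcc

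SLC37A2 lies on chromosome 11 from 125063067 to 125090312 (plus strand). Its 2 coding transcripts searched, of 2910 and 2696 bases, hold the same pair of matches. The 7mer-A1 is in exon 9 of both, within the coding sequence, at 125081812 to 125081818. The 6mer is in the last exon at 125088340 to 125088345, 251 bases after the stop codon in the transcript of 2696 bases and 206 bases after it in the other. The SLC37A2 3′ UTR of 1146 bases was the longest annotated, and of 2043 tested genes with a 3′ UTR of similar length (0.75 to 1.25 times as long) 30.5% held a 6mer or better. Among 3770 genes with a coding sequence of similar length, 22.7% held a 7mer-A1 or better. Matches like those of SLC37A2 were therefore common.

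H6PD had the most matches of the 6 genes. It lies on chromosome 1 from 9234775 to 9271337 (plus strand), and its longest 3′ UTR, of 6468 bases, held 5 matches: 1 8mer, 2 7mer-m8, 1 7mer-A1 and 1 6mer. The 8mer is in exon 5 of 5 at 9265881 to 9265888, 1012 bases after the stop codon, and 4 of the 5 matches are also in the shorter annotated form, whose 3′ UTR has 3029 bases. An 8mer was found in 14% of 828 genes with a 3′ UTR of similar length, against 6% of all 12793 genes searched. H6PD also held a 7mer-m8 in its coding sequence.

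In G6PC3 (chromosome 17, 44070735 to 44076344, plus strand) the same 7mer-m8 at 44075764 to 44075770 is read in 2 ways. It is in the coding sequence of the full-length transcript of 1533 bases, whose 3′ UTR of 261 bases held no match. In a shorter transcript of 844 bases, annotated with a coding sequence of 209 bases and no 5′ UTR, it is annotated as 3′ UTR. SLC37A3 (chromosome 7, 140293693 to 140404433, minus strand) held a single 6mer, at 140334042 to 140334047, in the 3′ UTR of 4 of its 8 coding transcripts searched. SLC37A1 (chromosome 21, 42496008 to 42581440, plus strand) had none in its coding sequence or 3′ UTR, and an 8mer in the 5′ UTR of 1 of 2 transcripts. SLC37A4 (chromosome 11, 119024114 to 119030906, minus strand) had no match in the 4 coding transcripts searched.

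**Figure D1:**
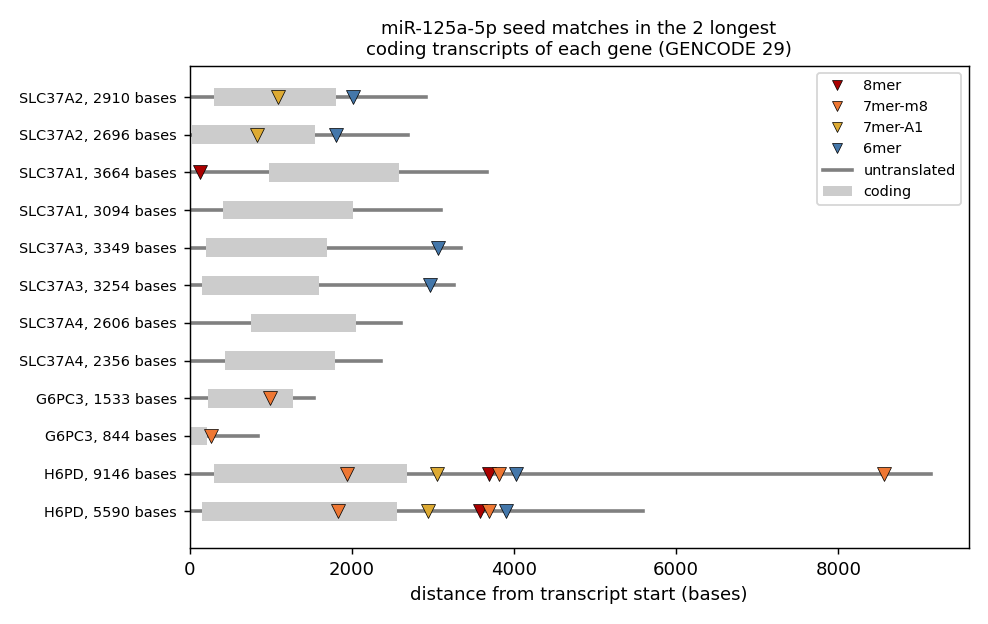
Seed matches of miR-125a-5p along the 2 longest coding transcripts of each gene, with the distance from the transcript start in bases on the x axis, coding sequence as grey bars, untranslated sequence as lines and matches as triangles coloured by class. SLC37A2 carries a 7mer-A1 in the coding sequence and a 6mer in the 3′ UTR, while H6PD carries 5 matches in its longest 3′ UTR.

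The libraries held 8256149 to 10257791 counts each, and levels are given as CPM, counts scaled to library size with the trimmed mean of M-values (TMM). Principal component 1 (25% of the variance of log2 CPM) set control library 1, at -38.2, away from the other libraries, at 1.14 to 16.3. Component 2 (21.2%) set miR-125a-5p library 3, at 31.1, away from the rest, at -21.5 to 5.24. Log2 fold changes of the 6 genes are therefore also given without each of these libraries. For the genes of the wider lists they are not. All 10 monocytic markers were detected, and their summed level was 3024 to 3112 CPM in the controls, against 2897 to 3062 CPM in miR-125a-5p libraries. The sums of T cell, B cell, epithelial and fibroblast markers stayed at or under 4.67 CPM in every library, and the erythroid markers HBB and HBA1 were listed at 0. Nothing in the sources said that the libraries came from separate cultures, so a p-value here speaks of the variation among 6 libraries and that variation may be technical.

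Set against each other per length, the 6 genes covered a wide span of levels in control cells. The scale here is CPM per kilobase of all annotated exons, and values are means ± SD of the 3 control libraries. SLC37A2 stood highest, at 20.8 ± 4.03. G6PC3 followed at 12.2 ± 2.06, H6PD at 4.38 ± 0.263 and SLC37A4 at 2.57 ± 0.515. SLC37A1 had 1.65 ± 0.26 and SLC37A3 had 0.262 ± 0.0424. No neighbours in this order overlapped in control libraries. For example, SLC37A2 ran from 16.8 to 24.8 and G6PC3 from 10.5 to 14.5 CPM per kilobase.

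The order depended in part on the length. SLC37A3 measured 10.59 kb as a union of exons and 3.349 kb as its longest coding transcript, and G6PC3 measured 4.551 and 1.533 kb. Per kilobase of longest coding transcript, SLC37A2 (36.7 to 54.4) and G6PC3 (31.1 to 43.1) overlapped in control libraries. SLC37A4 (4.86 to 7.30) then stood above H6PD (4.24 to 4.76). Per kilobase of longest annotated transcript, coding or not, the mean of SLC37A1 (3.08, range 2.55 to 3.51) stood above that of SLC37A4 (2.71, range 2.16 to 3.25), and their control libraries overlapped. SLC37A3 was lowest by every length used. The exchanger that works with the ER phosphatase, SLC37A4, was thus less abundant per length than its phosphatase G6PC3 in each library. The ratio of G6PC3 to SLC37A4 was 4.83 ± 0.839 (SD, n = 3) in control and 4.38 ± 0.881 (SD, n = 3) in miR-125a-5p libraries, per kilobase of exon union, and the groups overlapped.

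**Figure D2:**
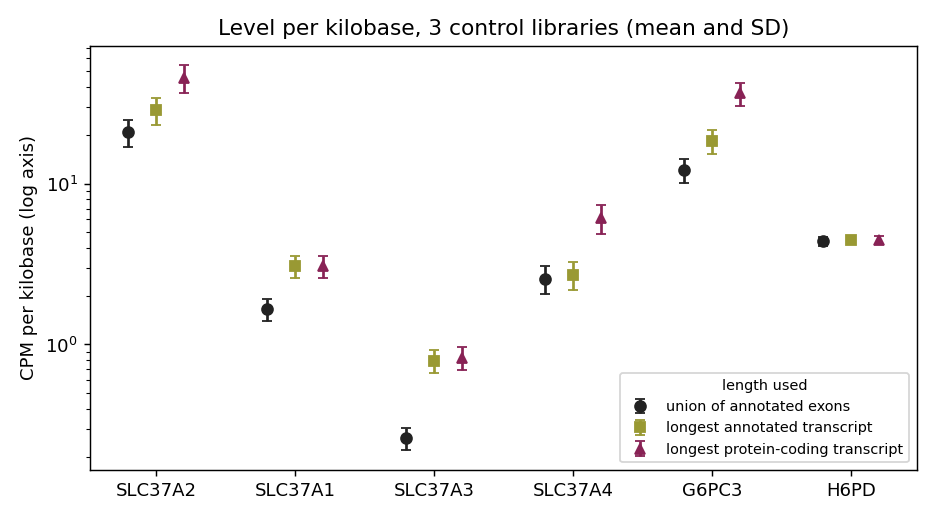
Level of each gene in the 3 control libraries as CPM per kilobase on a log axis, with points for the mean, bars for 1 SD and colours for the length used. SLC37A2 and G6PC3 stand above the other 4 genes by every length, and SLC37A3 is lowest.

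The comparison of the groups asked how transcripts of these genes differed after the miR-125a-5p mimic. In the edgeR quasi-likelihood test across all genes, 1 of the 6, SLC37A2, was lower at a Benjamini-Hochberg adjusted p of at most 0.05, where 0.0272% of all tested genes were called, all of them lower. That call is why SLC37A2 is described here, and nothing is read from this count. The other 5 genes did not pass, with fold changes in both directions, and their 95% intervals show what sizes remain possible. In bulk RNA, fewer cells with a transcript and less of it per cell cannot be told apart.

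SLC37A2 encodes an ER exchanger of glucose-6-phosphate for phosphate that is abundant in macrophages and has not been found to work together with the ER phosphatase. Its levels in control libraries 1, 2 and 3 were 158, 133 and 107 CPM. In miR-125a-5p libraries 1, 2 and 3 they were 65.5, 81.6 and 69.7 CPM. Every miR-125a-5p library was below every control library, as it was in 5.9% of all tested genes. The means were 133 ± 25.7 (SD, n = 3) and 72.3 ± 8.35 (SD, n = 3) CPM, and raw counts ran from 558 to 1612.

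The log2 fold change of SLC37A2 was -0.88 (SE 0.12, 95% interval -1.13 to -0.62), a level that fell by 45.5%. The SE and the interval take no account of the choice of SLC37A2 by this same difference. The fold change was 131st from the lowest among 14731 tested genes. Control library 1, which stood apart, held the highest SLC37A2 level, and the log2 fold change was -0.73 without it and -0.85 without miR-125a-5p library 3. The spread among controls (coefficient of variation 19.4%) was wider than among miR-125a-5p libraries (11.6%).

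SLC37A2 was set beside genes with matches of the same kind, as a description. Of 1661 searched genes whose best 3′ UTR match was a 6mer, 8 had a lower fold change than SLC37A2, and their median was 0.011. Among 131 genes that had both a 6mer as best 3′ UTR match and a 7mer-A1 as best coding match, 1 was lower, and the median was -0.001. Genes with these matches thus centred close to the median of all tested genes, 0.0011. SLC37A2 was chosen for its low value, so its place in their lower tail was set by that choice.

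Per kilobase of exon union, SLC37A2 no longer stood clear of G6PC3 after the mimic. By longest coding transcript, SLC37A2 and G6PC3 already overlapped in control libraries. On the exon union SLC37A2 ran from 10.3 to 12.8 CPM per kilobase in miR-125a-5p libraries, and G6PC3 from 11.8 to 15.6. Its share of the summed level of the 4 SLC37 genes, per kilobase, was 82.7%, 84.9% and 78.6% in control libraries 1, 2 and 3, and 73.3%, 73.0% and 64.1% in the miR-125a-5p libraries. The means were 82.1% ± 3.22 (SD, n = 3) and 70.1% ± 5.24 (SD, n = 3), and the groups did not overlap. The ratio of SLC37A2 to SLC37A4 was 8.24 ± 1.86 (SD, n = 3) in control and 3.69 ± 0.615 (SD, n = 3) in miR-125a-5p libraries, with no overlap. Both quantities contain the SLC37A2 level that chose the gene. SLC37A2 was the most abundant of the 4 exchangers per length in all 6 libraries.

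**Figure D3:**
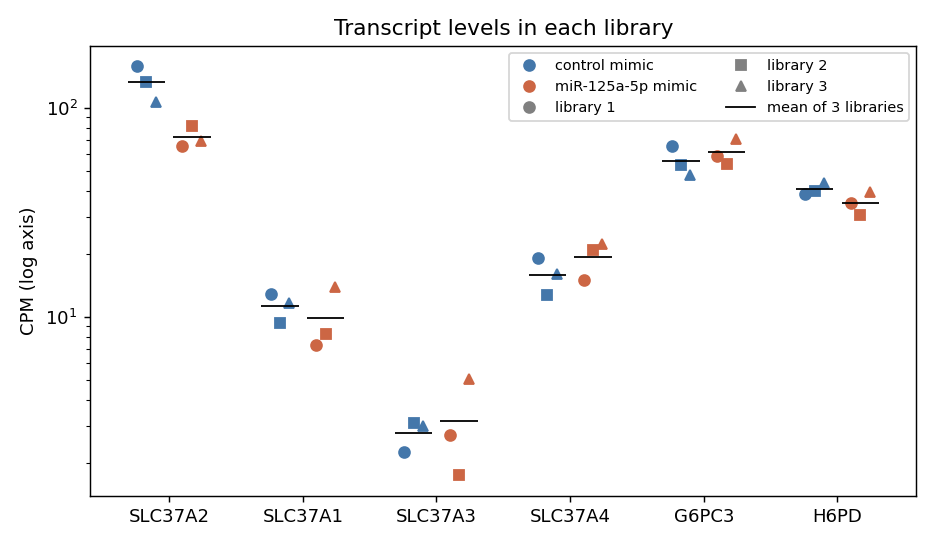
Level of each gene in each library as CPM on a log axis, with colours for the mimic, symbols for the library number and lines for group means. SLC37A2 is at or below 81.6 CPM in the miR-125a-5p libraries and at or above 107 CPM in the control libraries, and the groups of each other gene overlap.

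SLC37A1, the closest relative of SLC37A2 and also an exchanger of glucose-6-phosphate for phosphate, was measured at a low level. It had 12.9, 9.35 and 11.6 CPM in the controls, against 7.28, 8.26 and 13.9 CPM in miR-125a-5p libraries 1, 2 and 3. The groups overlapped: 2 miR-125a-5p libraries were below all controls and library 3 was above them. The log2 fold change was -0.21 (SE 0.24, 95% interval -0.70 to 0.29), which did not pass (edgeR adjusted p = 0.951). Without miR-125a-5p library 3 the fold change was -0.54, without library 1 of that group it was -0.034, and without control library 1 it was -0.10. These did not pass (edgeR adjusted p = 0.775, 0.994 and 0.968).

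SLC37A3 is a poorly understood member of the family that has been linked to the release of bisphosphonates from lysosomes. It was near the limit of measurement, with 23, 26 and 27 counts in control and 23, 16 and 42 counts in miR-125a-5p libraries. Counting error alone gives 16 counts an exact Poisson 95% interval of 9.145 to 25.98 and 42 counts one of 30.27 to 56.77. The level was 2.77 ± 0.449 (SD, n = 3) CPM in control and 3.16 ± 1.69 (SD, n = 3) CPM after the mimic, and the groups overlapped. Its log2 fold change of 0.18 (SE 0.42, 95% interval -0.69 to 1.06) did not pass (edgeR adjusted p = 0.972) and was -0.32 without miR-125a-5p library 3 and 0.049 without control library 1, so no direction can be given.

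SLC37A4, the ER glucose-6-phosphate translocase, had 19.0, 12.7 and 16.0 CPM in the controls, against 15.0, 20.8 and 22.4 CPM in miR-125a-5p libraries 1, 2 and 3. The groups overlapped, with 2 of 3 miR-125a-5p libraries above all controls. The log2 fold change was 0.28 (SE 0.19, 95% interval -0.11 to 0.68), which did not pass (edgeR adjusted p = 0.898). It was 0.43 without control library 1, 0.14 without control library 2 and 0.16 without miR-125a-5p library 3. Exons of TRAPPC4, a gene of vesicle transport on the other strand, overlap 8.79% of the annotated exon bases of SLC37A4. The strand setting of the counts is not given in the sources used here, so reads of this stretch cannot be assigned. TRAPPC4 itself had 25.4 ± 1.94 (SD, n = 3) CPM in the controls, against 25.7 ± 4.67 (SD, n = 3) CPM in miR-125a-5p libraries.

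G6PC3, the phosphatase subunit of the ER found in most tissues, had 66.0, 53.3 and 47.7 CPM in control libraries. It had 58.5, 53.9 and 71.1 CPM in miR-125a-5p libraries 1, 2 and 3. The groups overlapped. The log2 fold change of 0.13 (SE 0.13, 95% interval -0.14 to 0.40) did not pass (edgeR adjusted p = 0.938). It was 0.27 without control library 1 and 0.0086 without miR-125a-5p library 3. As a percent difference, the interval for G6PC3 ran from -9.15 to 32.4.

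H6PD, the luminal dehydrogenase whose NADPH serves the cortisone reductase HSD11B1, had 38.8, 40.1 and 43.5 CPM in control libraries. It had 35.0, 30.7 and 39.5 CPM in miR-125a-5p libraries 1, 2 and 3. In 2 of 3 miR-125a-5p libraries the level was below all controls, and library 3 overlapped them. The log2 fold change was -0.22 (SE 0.13, 95% interval -0.49 to 0.052), which did not pass (edgeR adjusted p = 0.884). It lay between -0.32 (without miR-125a-5p library 3) and -0.13 (without miR-125a-5p library 2) with any 1 library left out, and was -0.26 without control library 1. As a percent difference, the interval for H6PD ran from -28.9 to 3.67.

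H6PD was also set beside other genes with matches, as a description. Of the 768 searched genes with an 8mer in the 3′ UTR, 21.4% had a lower fold change than H6PD, and the median of the class was -0.065. Among the 72 genes with at least 5 matches in the 3′ UTR including an 8mer, 23.6% were lower than H6PD and the median was -0.11. H6PD, with the most matches, thus lay inside the range of its class. The difference between H6PD and SLC37A2 was not tested, since SLC37A2 was chosen by its value.

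The ratio of H6PD to G6PC3, the 2 ER enzymes that compete for the same substrate, was 0.287, 0.368 and 0.445 in control libraries, per kilobase of exon union. In the miR-125a-5p libraries it was 0.292, 0.278 and 0.271. The control values spread far more widely, and the groups overlapped through control library 1.

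**Figure D4:**
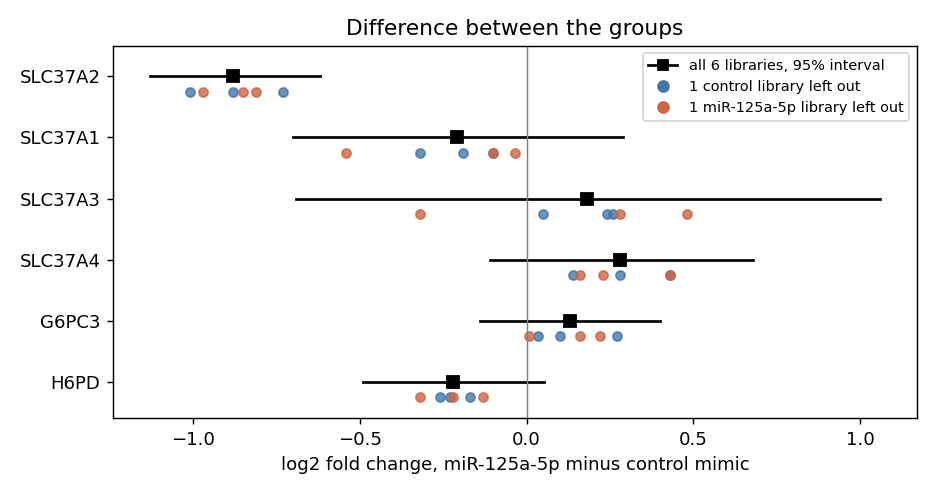
Log2 fold change of each gene, miR-125a-5p minus control mimic, with squares and lines for the fit of all 6 libraries and its 95% interval, and small points for fits with 1 library left out. SLC37A2 stays between -1.01 and -0.73, the intervals of the other 5 genes include 0, and SLC37A3 changes sign.

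The wider handling of glucose and glucose-6-phosphate was covered by 7 lists of 59 genes, of which 49 were tested. By edgeR, 0 of the 49 passed at an adjusted p of at most 0.05, and 0 passed with DESeq2, limma voom or edgeR's likelihood ratio test. RPIA and SLC35B4 were higher and SLC35D1 lower at an unadjusted p under 0.05, as were 2.69% (higher) and 3.22% (lower) of all tested genes. The groups did not overlap in 3 higher and 1 lower of these genes, beside 5.31% and 5.9% of all tested genes. The median log2 fold change of the 49 was 0.011, beside 0.0011 over all tested genes. Of the 49, 26 had a positive and 23 a negative fold change, beside 7397 and 7334 of all tested genes.

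Of the cytosolic pentose phosphate genes, 7 of 8 had a positive fold change, as had 7397 of all 14731 tested genes. Of these 8 genes 0 passed, and their median was 0.089. RPIA, which converts ribulose and ribose phosphates, had 8.05, 7.81 and 8.73 CPM in the controls, against 12.4, 13.4 and 9.94 CPM in miR-125a-5p libraries. The groups of RPIA did not overlap, and its log2 fold change was 0.54 (SE 0.22, edgeR adjusted p = 0.736). TKTL1, a transketolase-like protein, had the 1 negative value, -0.64 (edgeR adjusted p = 0.884), at 16 to 43 counts per library. PGD, the next dehydrogenase of the pathway, had 179 ± 19.3 CPM in control and 188 ± 15.1 CPM after the mimic (SD, n = 3 each). RPE, an epimerase of the pathway, had 89.5 ± 2.58 CPM in control and 90.1 ± 6.4 CPM after the mimic.

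Among hexose transporters 0 of 11 tested genes passed, with 8 negative and 3 positive values and a median of -0.14. SLC2A1, the widespread glucose transporter, had 161 ± 25.7 CPM in the controls, against 161 ± 18.8 CPM in miR-125a-5p libraries (SD, n = 3 each). SLC2A5, a fructose transporter, had 116 ± 3.99 and 114 ± 2.11 CPM. The smallest p belonged to SLC2A11 (log2 fold change -0.35), SLC2A12 (-0.33) and the inositol transporter SLC2A13 (-0.14), with edgeR adjusted p of 0.935, 0.951 and 0.951.

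For glucose phosphorylation 0 of 4 tested genes passed. HK2, a hexokinase, had 128 ± 12.8 CPM in control and 116 ± 9.32 CPM after the mimic, and HK1 had 34.4 ± 4.09 and 37.3 ± 1.35 CPM (SD, n = 3 each). ADPGK, an ADP-dependent glucokinase of the ER, had 90.1 to 105 CPM in controls and 96.6 to 120.0 CPM after the mimic. The log2 fold changes of HK2, HK1 and ADPGK were -0.15, 0.12 and 0.10 (edgeR adjusted p = 0.898, 0.944 and 0.940). HSD11B1, which uses the NADPH made by H6PD, had 18.0 ± 4.36 CPM in control and 19.7 ± 3.99 CPM after the mimic, and its log2 fold change was 0.12 (edgeR adjusted p = 0.963).

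In the glycogen list 0 of 11 tested genes passed, with 5 positive and 6 negative values. PYGL, a glycogen phosphorylase, had 124 ± 15.7 CPM in control and 132 ± 11.7 CPM after the mimic (SD, n = 3 each). UGP2, which makes UDP-glucose, had 91.5 ± 5.2 and 84.3 ± 5.23 CPM (log2 fold change -0.12, edgeR adjusted p = 0.924). GYG1, the primer protein glycogenin, had a log2 fold change of 0.23 (edgeR adjusted p = 0.884) and PGM2, a phosphopentomutase, one of 0.14 (edgeR adjusted p = 0.919).

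Of the fructose phosphate genes 0 of 9 passed, with 6 positive and 3 negative values. GPI, the isomerase that takes glucose-6-phosphate into glycolysis, had 184 ± 4.39 CPM in control and 181 ± 13.8 CPM after the mimic (SD, n = 3 each). The phosphofructokinases PFKP and PFKL had log2 fold changes of 0.031 and 0.088 (edgeR adjusted p = 0.985 and 0.961). PFKFB3, which makes an activator of phosphofructokinase, had 23.7, 23.2 and 24.4 CPM in the controls, against 29, 26.8 and 28.7 CPM in miR-125a-5p libraries. The groups of PFKFB3 did not overlap, and its log2 fold change was 0.24 (SE 0.14, edgeR adjusted p = 0.882). TIGAR, which removes that activator, had 0.34 at 25 to 50 counts per library (edgeR adjusted p = 0.940).

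Of the other solute carriers of the ER membrane 0 of 5 passed, with 1 positive and 4 negative values. SLC35D1, a carrier of UDP-sugars, had 70.3, 70.0 and 74.0 CPM in the controls, against 61.2, 62.1 and 56.5 CPM in miR-125a-5p libraries. The groups of SLC35D1 did not overlap, and its log2 fold change was -0.25 (SE 0.11, edgeR adjusted p = 0.793). SLC35B4, also a carrier of UDP-sugars, had 0.24 (SE 0.11, edgeR adjusted p = 0.816), and SLC35B1, which brings ATP into the ER, had -0.056 (edgeR adjusted p = 0.979).

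**Figure D5:**
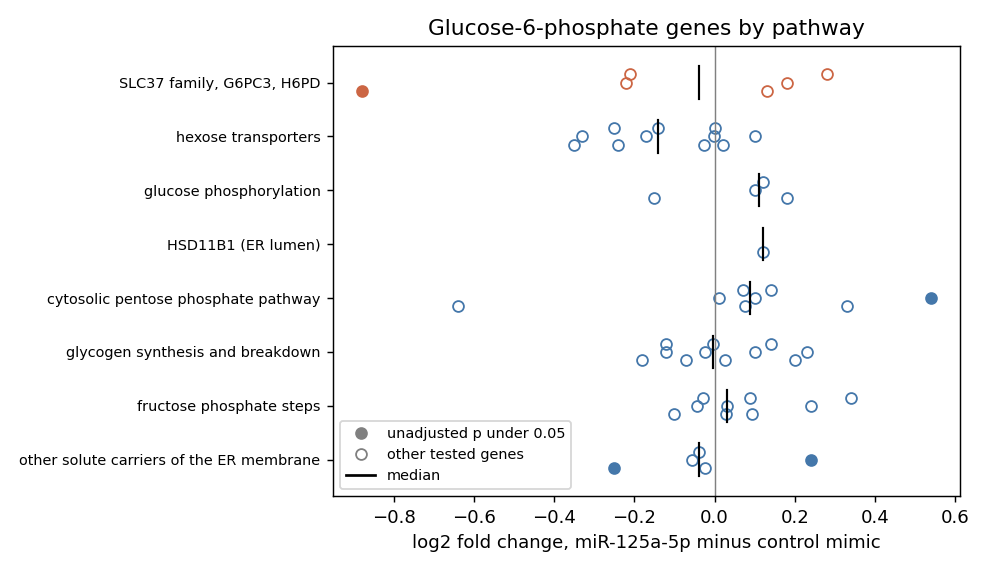
Log2 fold change, miR-125a-5p minus control mimic, of every tested gene by list, with filled points for an unadjusted p under 0.05, open points for other genes and lines for list medians. SLC37A2, at -0.88, is the lowest point, and the values of the 49 list genes run from -0.64 to 0.54.

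The genes whose pattern over the 6 libraries was most like that of SLC37A2 were found by Pearson correlation of log2 CPM among 11596 genes with a mean of at least 5 CPM. They were GLCCI1 (r = 0.998), GPR180 (0.996), TICAM2 (0.992), RIN2 (0.991) and PLEKHO1 (0.990). The points share libraries and the difference between groups that picked SLC37A2, and 133 genes reached 0.9, so the values only describe these 6 libraries. The sizes differed: log2 fold changes were -0.16 for GLCCI1, -0.40 for GPR180, -0.55 for TICAM2, -0.35 for RIN2 and -0.38 for PLEKHO1. TICAM2 is an adaptor of Toll-like receptor signalling and RIN2 a regulator of endocytic Rab proteins.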

How the data were processed

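The deposited table holds raw, unscaled counts by gene for 6 libraries. The submitters' processing notes name TopHat, bcl2fastq and edgeR and the build hg19. No counting tool, annotation or strand setting is given in the sources used here. NCBI gene identifiers were paired with RefSeq symbols (26204 of 26347, 99.5%).

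After filterByExpr, 14731 of the 21274 genes detected at all remained. They were scaled by TMM and tested with edgeR 4.0.16 in R 4.3.3 (glmQLFit, glmQLFTest, no covariate, Benjamini-Hochberg over all genes, threshold 0.05). The SE is the log2 fold change divided by the square root of F. No pair of libraries agreed within sampling noise. On simulated counts of 14532 genes, 47% of log2 changes of 0.5 and 90% of changes of 1 were called. In that run many genes were changed, which eases the adjusted threshold, whereas 4 genes were called in the real libraries. No simulated library stood apart either, so the shares may be too high for the real libraries. The changes were put only into genes with a mean of at least 5 CPM, so these shares do not cover SLC37A3. In the same run 9 unchanged genes were called.

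The genes and lists were chosen with earlier results of these data known. The text names all 6 genes, of each list the called genes, the 3 smallest p and the 2 highest mean CPM, and the 5 genes most like SLC37A2. Some genes of the lists are counted but not reported here by name. Seed matches were searched in GENCODE 29, with 3′ UTRs of at least 20 bases. Stretches of 50 bases shared with transcripts of other genes made up 0.516% (G6PC3) to 5.96% (SLC37A4) of each gene, and 0 were shared between the 6 genes. Intervals cover counting error only where named Poisson. Alternatives covered scaling, filter, test (DESeq2 1.42.0, limma 3.58.1), the replicate number as a block, each library left out and the length.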

Additional observations from a re-analysis of the deposited data

How the results depend on the processing

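Under 16 alternatives SLC37A2 stayed the 1 called gene of the 6, with a log2 fold change from -1.01 to -0.73. Since SLC37A2 was chosen by this difference in the same libraries, its refits are a description and no independent test. Its call was nearest the threshold without miR-125a-5p library 1 (edgeR adjusted p = 0.0489). Under the same alternatives 0 list genes were called. Fold changes kept their direction in 95 of 96 refits of the 6 genes. The exception was SLC37A3, at -0.32 without miR-125a-5p library 3, and the cause was not tested. Over fits that each omit 1 library, the log2 fold change ran from -0.54 to -0.034 for SLC37A1, -0.32 to 0.48 for SLC37A3, 0.14 to 0.43 for SLC37A4 and 0.0086 to 0.27 for G6PC3. Across all genes, the counts called higher and lower were 0 and 4 in the fit reported, 11 and 41 with no filter on low counts, 2 and 11 with DESeq2, and 4 and 17 with edgeR's likelihood ratio test. Leaving out 1 library gave 0 to 2 higher (2 without miR-125a-5p library 3) and 3 to 14 lower (14 without control library 3). With the replicate number as a block 9 genes were lower, and SLC37A2 had -0.86. The labels do not say that a number pairs libraries. Deviations of same-numbered libraries correlated at 0.0558, 0.0138 and -0.0156, and those of differently numbered libraries at -0.0635 to 0.046. Control library 2 was closest to miR-125a-5p library 3 (0.046), so not every library was closest to its own number. These correlations are all weak and do not settle whether numbers pair libraries. Per kilobase of longest annotated transcript, the control level was 28.5 for SLC37A2, 3.08 for SLC37A1, 0.795 for SLC37A3, 18.4 for G6PC3 and 2.71 for SLC37A4, which put SLC37A1 above SLC37A4. Per kilobase of longest coding transcript, a length added after seeing the data, it was 45.6, 3.08, 0.828 and 36.3, and 6.10 for SLC37A4. A match in the longest 3′ UTR was held by 4 of the 6 genes, beside 37.3% of all 12793 genes searched, and in every annotated 3′ UTR by 2. G6PC3 counts among the 4 only through its shorter transcript of 844 bases. At 16 to 42 counts per library, depth limits SLC37A3 most.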

Other observations

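Among the list genes too low to test, G6PC1, the liver form of the ER phosphatase, had 0, 0 and 4 counts in control libraries 1, 2 and 3 and 9, 4 and 7 counts in the miR-125a-5p libraries. G6PC2, the islet form, had 1, 0 and 3 and then 2, 6 and 0 counts. SLC2A2, a glucose transporter of liver and islets, had 12 counts in control library 1 and 1 to 5 counts in the other libraries. The hexokinase HKDC1 was listed at 0 in all 6 libraries, which allows up to 0.292 to 0.363 CPM by library total (3 counts each). These values cover counting error only and were not compared.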
